A study of Mus musculus with 4 samples.

Results

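The integrin genes described here are 10 genes that encode adhesion receptor chains of lymphocytes: *Itga4*, *Itgb7*, *Itgb1*, *Itgae*, *Itgal*, *Itgb2*, *Itgav*, *Itgb3*, *Itga1*, and *Itga2*. They were picked by name from the 27179 rows of a gene count table, with values of these same libraries already known, so their DCA against vehicle values are a description and carry no test. Of the 10 genes, 6 encode α chains and 4 encode β chains, and all 10 were among the 11184 genes that averaged 1 CPM or more (read counts scaled by library size) over the libraries. Group 2 innate lymphoid cells (ILC2s), antigen receptor-free lymphocytes that make type 2 cytokines, were isolated from the large intestine of C57BL/6 mice as CD45.2+Lin–CD127+KLRG1+ cells. The sorted cells were grown for 5 days with 10 ng/mL each of IL-33, IL-25, IL-7, and IL-2 and then received vehicle or the secondary bile acid deoxycholic acid (DCA), with 2 libraries per treatment. The methods give 100 μM DCA for 24 hours, whereas the deposited design text gives 16 hours, and they give an age of 6 to 8 weeks for C57BL/6J mice within a range of 6 to 14 weeks for the study. The mice of both treatments were wild-type, and both cultures had the same cytokines. The cells were therefore a cultured, cytokine-driven population, and the labels do not say whether the libraries came from separate mice or cultures, so p-values measure only the spread between these libraries, which may be technical.

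The libraries held 35838342 and 26564059 counts under vehicle and 32102232 and 244165712 counts under DCA. Where a gene had 0 counts, up to 3 remained possible, or 0.0820 and 0.115 CPM for vehicle and 0.0928 and 0.0125 CPM for DCA (counting error only, since amplified reads are not independent molecules). All 13 ILC2 markers were above 3 counts in at least 1 library, although *Thy1* had only 2, 0, 137, and 6 counts. The summed level of the 13 was 15632 to 20379 CPM, of which *Il5* alone gave 7719 to 12321 CPM. Single markers moved both ways. The sort marker *Klrg1* was at 688 and 678 CPM under vehicle and 463 and 356 CPM under DCA. *Il1rl1* and *Areg* were also lower in both DCA libraries than in either vehicle library, whereas *Il5*, *Il7r*, and *Il2ra* were higher in both. T cell markers summed to 15.9 to 34.7 CPM, with *Cd4* and *Cd8a* at 0. Most of this sum was *Cd3g* (11.9 and 25.5 CPM under vehicle, 21.3 and 10.5 under DCA) and *Trac* (6.12 and 7.98 CPM under vehicle, 5.75 and 4.64 under DCA). B cell markers summed to 37.7 to 55.1 CPM, nearly all *Cd79b*. Markers of ILC3s reached at most 1.48 CPM, all of it *Il17a* in DCA replicate 1. Those of megakaryocytes and platelets, a cell type known for β3 integrin, reached at most 0.410 CPM. Epithelial markers summed to 8.28 to 14.3 CPM, and mast cell and basophil markers to 159 to 362 CPM, nearly all *Kit*.

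An integrin is a pair of membrane proteins, 1 α and 1 β chain, and a chain reaches the surface only with a partner. The α4β7 pair binds MAdCAM-1 on gut vessels and brings lymphocytes into the intestine, αEβ7 binds E-cadherin on epithelium, and αLβ2 (LFA-1) binds ICAM proteins on other cells. The β1 chain pairs with α4 to bind VCAM-1, with α1 and α2 to bind collagens, and with αV to bind matrix proteins, whereas αVβ3 is a receptor for vitronectin and osteopontin.

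On GRCm38.p6, *Itga4* (Entrez gene 16401) spans chromosome 2 from 79255426 to 79333114, and *Itgb7* (16421) spans chromosome 15 from 102215994 to 102233405. The 250 bases before the RefSeq start are shown for both chains of the gut-homing pair, since the α chain had the widest gap between treatments among members counted in every library and the β chain was the most abundant integrin RNA. The *Itga4* window is chr2:79255176-79255425 on the plus strand, and the *Itgb7* window is chr15:102231936-102232185 on the minus strand. The latter lies inside the outer bounds of its gene and includes 9 bases of an annotated *Itgb7* exon. Capitals mark matches to the motifs described after the sequences.
Itga4 promoter window: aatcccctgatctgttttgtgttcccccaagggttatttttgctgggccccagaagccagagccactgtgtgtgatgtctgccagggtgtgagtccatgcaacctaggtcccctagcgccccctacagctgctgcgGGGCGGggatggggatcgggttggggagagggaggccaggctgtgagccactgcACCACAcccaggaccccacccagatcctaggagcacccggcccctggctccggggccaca
Itgb7 promoter window: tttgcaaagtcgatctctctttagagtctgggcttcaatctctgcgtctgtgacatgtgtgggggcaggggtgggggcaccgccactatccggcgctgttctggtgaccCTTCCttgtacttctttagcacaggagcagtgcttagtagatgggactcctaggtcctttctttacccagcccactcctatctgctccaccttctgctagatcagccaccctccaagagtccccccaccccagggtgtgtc
Of the 10 genes, 6 had a promoter entry in the RefSeq table (*Itga4*, *Itgav*, *Itgb1*, *Itga2*, *Itga1*, and *Itgb7*), and 4 motifs were searched on both strands. The *Itga4* window held a GC box (GGGCGG), which starts 114 bases before the gene and is found in 32.7% of 32851 windows of this length. It also held the RUNX motif (TGTGGT) on the opposite strand, 60 bases before the start, found in 14% of windows. The ETS motif (GGAAG) in the *Itgb7* window, on the opposite strand 141 bases before the start, was in 64.1% of windows. The GATA motif (AGATAA), found in 9.99% of windows, was in neither sequence. These matches describe letters only.

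*Itgb7* and then *Itgb2* were the most abundant integrin RNAs of the cultured ILC2s, and α chain RNA was scarce beside β chain RNA. Levels of different genes were compared as CPM per kb of exon length. Under vehicle, *Itgb7* was at 350 and 164 CPM per kb and *Itgb2* at 63.1 and 75.7 CPM per kb, so that *Itgb7* exceeded *Itgb2* by 5.54-fold and 2.17-fold in the respective libraries. *Itgal*, which encodes the αL chain of LFA-1, followed at 16.7 and 19.1 CPM per kb. *Itgb3* was at 16.9 and 10.6 CPM per kb and *Itgb1* at 15.8 and 3.37 CPM per kb, and neither could be separated from its neighbour above in the order, since the vehicle libraries overlapped. *Itga4* (0.991 and 2.82 CPM per kb) and *Itgav* (0.839 and 2.37 CPM per kb) overlapped each other and, by exon length, were below all 5 genes above them. *Itgae* (0.358 and 0.725 CPM per kb), *Itga2* (0 and 0.637 CPM per kb), and *Itga1* (0.0147 and 0.226 CPM per kb) closed the order, with overlap between neighbours. Using the longest transcript as the length gave the same order for 10 of 10 genes.

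**Figure D1:**
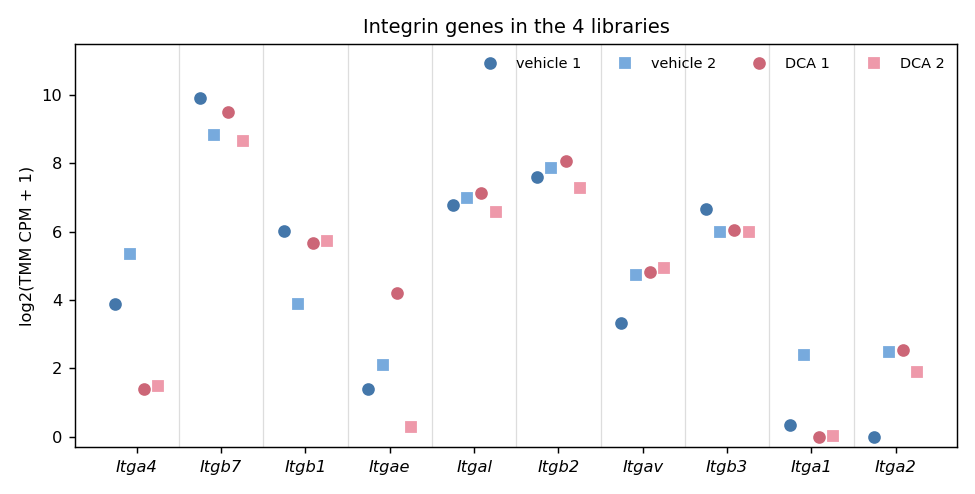
Level of each integrin gene in the 4 libraries, as log2(TMM CPM + 1) on the vertical axis, under vehicle in blue and DCA in red (circles are replicate 1 and squares replicate 2). *Itga4* is at 13.9 and 39.4 CPM under vehicle and at 1.64 and 1.80 CPM under DCA, whereas the DCA libraries of *Itgae* are far apart at 17.4 and 0.212 CPM.

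Over the 27 integrin chain genes of the table, *Itgb7* gave 78.5% and 64.2% of the summed β chain level per kb under vehicle and 70.2% and 65.7% under DCA. *Itgal* gave 87.2% and 69.3% of the summed α chain level under vehicle and 74.6% and 75.4% under DCA. The dominant chain of each kind was thus the same gene in all 4 libraries. Beneath it, *Itga4* gave 5.16% and 10.2% of the α chain level under vehicle but 0.412% and 0.672% under DCA, and among the 10 genes its place in the order of mean levels went from 6 to 9. *Itgav* took 4.37% and 8.60% under vehicle and 8.87% and 14.4% under DCA. The summed β chains exceeded the summed α chains by 23.2-fold and 9.29-fold under vehicle and by 13.1-fold and 11.6-fold under DCA, and the 10 genes held 98.6% to 99.9% of the level of all chains in each library.

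**Figure D2:**
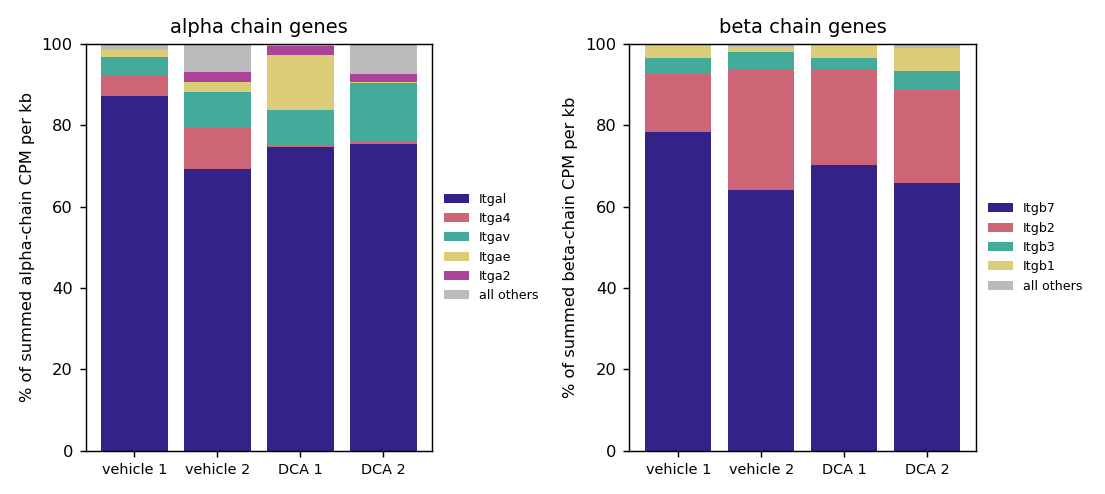
Share of each α chain gene (left) and β chain gene (right) in the summed level of its kind, in percent of CPM per kb, for each library. *Itgal* and *Itgb7* fill most of every bar, and the *Itga4* segment is 5.16% and 10.2% under vehicle but 0.412% and 0.672% under DCA.

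*Itga4*, the α chain of the gut-homing pair, was lower under DCA, while its partner *Itgb7* stayed abundant. *Itga4* was counted 507 and 1032 times under vehicle, and 53 and 434 times under DCA in libraries of very unequal depth. Scaled for depth, these counts are 13.9 and 39.4 CPM under vehicle against 1.64 and 1.80 CPM under DCA. The DCA libraries were close to each other and below both vehicle libraries, which were themselves 2.84-fold apart. The means were 26.6 ± 18.1 CPM (SD, n = 2) under vehicle and 1.72 ± 0.116 CPM (SD, n = 2) under DCA, and the lower vehicle library was 7.68-fold above the higher DCA library. The fitted log2 fold change, DCA over vehicle, was -3.95. The difference of mean log2(CPM + 1) was -3.17, with a standard error of 0.72 from the spread between libraries. Standard errors printed below beside fitted fold changes are likewise those of this difference. When 1 library was dropped at a time the fitted value ran from -4.54 to -3.01, and it was -3.01 without vehicle replicate 2, the library with the most *Itga4*. In bulk RNA, fewer cells that express a gene and less of its RNA per cell cannot be told apart. Among markers of other cells, the macrophage list moved the same way, with 24.5 and 24 CPM against 7.30 and 10.2 CPM, nearly all *Cd68*. Of that list, *Csf1r*, *Cd14*, and *Fcgr1* were at 0 in every library, and *Adgre1* had 8, 0, 0, and 10 counts. The B cell list was also lower, with 55.1 and 47.2 CPM against 37.7 and 44.5 CPM, nearly all *Cd79b*. The part of these markers in the *Itga4* values was not tested. *Itga4* shares 1124 bases, 8.04% of its exon length, with *Cerkl* on the opposite strand, which had 1 and 7 counts under vehicle and 141 and 73 counts under DCA. Scaled for depth, *Cerkl* was at 0.0273 and 0.267 CPM under vehicle and 4.36 and 0.303 CPM under DCA, so only DCA replicate 1 stood apart. The strand setting of the counting is not given in the sources used here, so reads in the shared bases cannot be assigned with certainty.

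*Itgb7*, which encodes the β7 chain, was at 969 and 455 CPM under vehicle and 728 and 405 CPM under DCA. The treatments overlapped, since DCA replicate 1 lay between the vehicle libraries. Its mean was 712 ± 363 CPM (SD, n = 2) under vehicle and 566 ± 228 CPM (SD, n = 2) under DCA, and the log2 fold change of -0.33 (standard error 0.69) ran from -0.81 to 0.29 with 1 library left out. Within a library, *Itga4* per kb was 0.283% and 1.71% of *Itgb7* under vehicle and 0.0446% and 0.0882% under DCA. By exon length *Itga4* was therefore below 2% of the β chain in every library, though at 2.38% in vehicle replicate 2 by longest transcript. By either length the ratio was lower in both DCA libraries than in either vehicle library.

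*Itgae* (Entrez gene 16407, chromosome 11 from 73090505 to 73147449), the αE chain that pairs with β7 to hold lymphocytes at epithelium, had no common direction. It was at 1.64 and 3.32 CPM under vehicle and at 17.4 and 0.212 CPM under DCA, from 60, 87, 564, and 51 counts. DCA replicate 1 was the highest of the 4 libraries, 5.25-fold above the higher vehicle library, and DCA replicate 2 was the lowest. The DCA libraries differed by 3.93 in log2(CPM + 1), a gap exceeded by 0.107% of the genes tested. The fitted log2 fold change was 1.83, and the difference of mean log2(CPM + 1) was 0.49, with a standard error of 2.00. Without DCA replicate 1 the fitted value became -3.55. As a share of *Itgb7* per kb, *Itgae* was at 0.102% and 0.441% under vehicle and at 1.45% and 0.0316% under DCA. T cells, other cells that can carry αEβ7, were gated out of the sort by CD3 and CD5, and their markers summed to 20.6 and 34.7 CPM under vehicle and to 27.4 and 15.9 CPM under DCA. Most of this sum was *Cd3g* and *Trac*. The ILC3 marker *Il17a*, at 48 counts, was counted only in DCA replicate 1, the library with the most *Itgae*, and *Thy1* was also highest there, at 137 counts. So were the epithelial markers *Muc2* (93 counts) and *Vil1* (16 counts), whereas the epithelial list as a whole was highest in vehicle replicate 2, at 14.3 CPM. The part of these markers in the *Itgae* values was not tested.

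**Figure D3:**
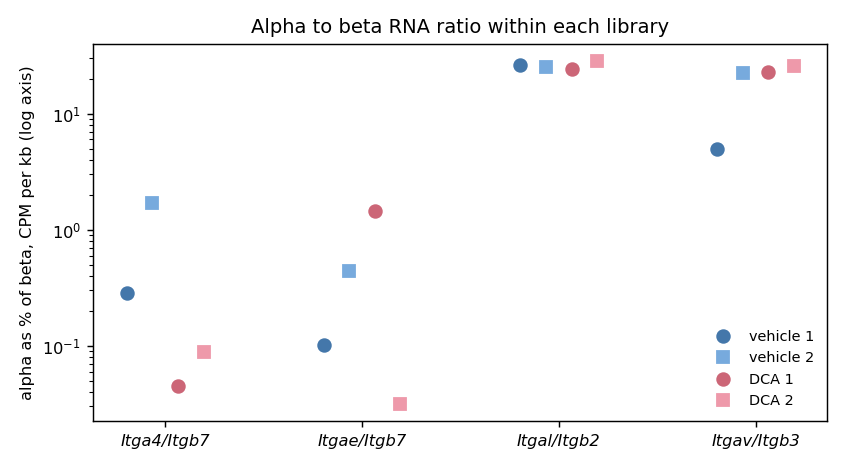
Level of an α chain gene as a percent of its β chain partner, from CPM per kb, on a log axis, in each library. *Itga4* over *Itgb7* is 0.283% and 1.71% under vehicle and 0.0446% and 0.0882% under DCA, while *Itgal* over *Itgb2* stays between 24.3% and 28.4%.

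The genes of LFA-1, the leukocyte integrin that binds ICAM proteins, had nearly equal means in the treatments. *Itgal* (16408, chromosome 7 from 127296139 to 127335137) was at 110 and 125 CPM under vehicle and 140 and 95.1 CPM under DCA, with means of 118 ± 11 and 117 ± 31.5 CPM (SD, n = 2 each). *Itgb2* (16414, chromosome 10 from 77530329 to 77565708), the common β chain of leukocyte integrins, was at 193 and 231 CPM under vehicle and 267 and 155 CPM under DCA, with means of 212 ± 27.2 and 211 ± 79.1 CPM (SD, n = 2 each). For both genes the vehicle libraries lay between the DCA libraries. The standard errors of the differences of mean log2(CPM + 1), 0.29 for *Itgal* and 0.41 for *Itgb2*, leave room for changes in either direction. The fitted log2 fold changes ran from -0.31 to 0.25 and from -0.45 to 0.34 with 1 library left out. The ratio of the chains was the steadiest of the pairs examined: *Itgal* per kb was 26.5% and 25.2% of *Itgb2* under vehicle and 24.3% and 28.4% under DCA.

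*Itgav* (16410, chromosome 2 from 83722303 to 83806917), which encodes the αV chain of vitronectin receptors, was at 9.02 and 25.5 CPM under vehicle and at 27.1 and 29.7 CPM under DCA. The DCA values both exceeded the vehicle values, although vehicle replicate 2 was close to them. The log2 fold change of *Itgav* was 0.72 (standard error 0.70), and it was 0.13 when vehicle replicate 1 was left out and 1.66 when vehicle replicate 2 was. *Itgb3* (16416, chromosome 11 from 104608000 to 104670476), the β3 chain, was at 99.6 and 62.8 CPM under vehicle and 65.6 and 63.1 CPM under DCA. Vehicle replicate 1 was thus the only library that stood above the other 3, and the log2 fold change of -0.34 (standard error 0.33) became 0.0092 without it. *Itgav* per kb was 4.97% of *Itgb3* in vehicle replicate 1 and 22.3% in vehicle replicate 2, beside 22.7% and 25.8% under DCA. *Itgav* shares 634 exon bases with *Gm13684* on the opposite strand and *Itga1* shares 685 with *Gm49395* on the same strand, so reads in the shared bases of either gene cannot be assigned with certainty.

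*Itgb1* (16412, chromosome 8 from 128685654 to 128733579), the β chain shared by VLA-4 and the collagen receptors, was at 64.3 and 13.7 CPM under vehicle and at 50.3 and 51.8 CPM under DCA. Vehicle replicate 2 was at least 3.66-fold below each of the other libraries, and both DCA libraries lay between the vehicle libraries. The log2 fold change of *Itgb1* was 0.39 (standard error 1.07), with 1.87 without vehicle replicate 1 and -0.33 without vehicle replicate 2. *Itgb1* was lowest and *Itga4* highest in the same library, and *Itga4* per kb was 6.29% of *Itgb1* in vehicle replicate 1 and 83.7% in vehicle replicate 2, beside 0.951% and 1.02% under DCA. *Itgav* per kb was 5.32% and 70.4% of *Itgb1* under vehicle and 20.5% and 21.8% under DCA. With the longest transcript as the length, the ratios to *Itgb1* in vehicle replicate 2 became 112% for *Itga4* and 100% for *Itgav*.

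The collagen receptor chains *Itga1* (109700, chromosome 13 from 114958079 to 115101964) and *Itga2* (16398, chromosome 13 from 114833081 to 114932100) were each at 0 counts in 1 library and did not follow each other. Their genes lie 21 kb apart in the GENCODE models, which start *Itga1* at 114953096 and not at the RefSeq position given here. *Itga1* had 10 and 110 counts under vehicle and 0 and 4 counts under DCA, or 0.273 and 4.2 CPM against 0 and 0.0166 CPM. The DCA values were both under the vehicle values, and vehicle replicate 2 held most of the counts, so the gene passed the filter on low values through the vehicle libraries alone. Its fitted log2 fold change of -7.50 depends on the prior count used at such low counts and is not a measured size. *Itga2* had 0 and 119 counts under vehicle and 154 and 651 under DCA, or 0 and 4.54 CPM against 4.76 and 2.70 CPM. It was missing from vehicle replicate 1 only, and its log2 fold change of 0.72 (standard error 1.28) was -0.31 without that library. *Itga2* per kb was 0% and 18.9% of *Itgb1* under vehicle and 5.42% and 2.99% under DCA.

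Over the 10 genes, the DCA values both exceeded the vehicle values for 1 gene (*Itgav*) and both lay below them for 2 (*Itga4* and *Itga1*). Such separation in either direction was seen in 33.3% of all genes tested, 18.6% for higher and 14.7% for lower. By edgeR's quasi-likelihood test with Benjamini-Hochberg adjustment, 0 of the 10 genes and 0 of the 11184 tested genes (0.0%) had an adjusted p under 0.05, and 1 of the 10 (*Itga4*) had an unadjusted p under 0.05, as did 4.27% of all genes. DESeq2 called 1 of the 10 (*Itga4*) and 1.13% of all genes, and edgeR without a filter on low counts also called *Itga4*, among 36 of 17706 genes. Because the genes were listed with this contrast known, these counts describe them only. The log2 fold changes were positive for 4 genes and negative for 6, with a median of -0.0037, beside 0.0080 over all genes tested.

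Several integrin genes differed more between the vehicle libraries than between the DCA libraries. Between the vehicle libraries, 8 of the 10 had a larger gap in log2(CPM + 1) than the median gene (0.56), led by *Itga2* (2.47), *Itgb1* (2.15), and *Itga1* (2.03). Between the DCA libraries, 5 of the 10 were above the median gap of 0.41. The sign of the fold change was kept with every single library left out for *Itga4* and *Itgav*. *Itga1* also kept its sign where tested, but it passed the filter on low values through the vehicle libraries alone, so its sign is no support. Without vehicle replicate 2, *Itga1* was not tested. For the other 7 genes the sign changed in at least 1 case.

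**Figure D4:**
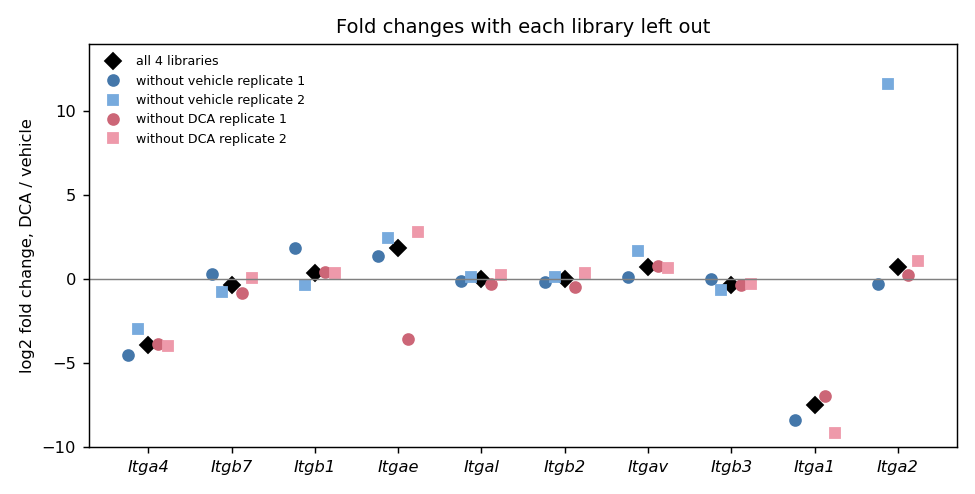
Fitted log2 fold change (DCA over vehicle) of each integrin gene with all 4 libraries (black diamonds) and with 1 library left out (blue without a vehicle library, red without a DCA library). All *Itga4* points lie between -4.54 and -3.01, *Itgae* moves from 1.83 to -3.55 without DCA replicate 1, and the *Itga2* point at 11.6 has its only vehicle library at 0 counts.

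The 17 other integrin chains were sparse, and 0 of them exceeded 3 counts in every library. *Itgad* and *Itgax* were at 0 in all 4 libraries, and antibodies against the products of *Itgam* (CD11b) and *Itgax* (CD11c) were part of the lineage mix that excluded cells from the sort. Tested were *Itga3*, *Itga5*, *Itgb5*, and *Itgb8*, and 0 of these 4 had an unadjusted p under 0.05. *Itga3*, a laminin receptor chain, had 8 and 183 counts under vehicle and 0 and 959 under DCA. *Itga5*, the fibronectin receptor chain, had 0 and 60 counts under vehicle and 0 and 723 under DCA, and *Itgb5*, a partner of αV, had 0 and 177 under vehicle and 3 and 1572 under DCA. These 3 chains were at 2.29 to 6.99 CPM in replicate 2 of each treatment and at most 0.219 CPM in replicate 1 of each. *Itgb8*, the partner of αV that activates TGF-β, had 10 and 0 counts under vehicle and 172 and 282 under DCA, so the DCA values both exceeded the vehicle values, and it passed the filter through the DCA libraries alone.

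Genes around the integrins were taken from lists of 108 genes by role, of which 72 were tested. By the same edgeR test 0 of the 72 had an adjusted p under 0.05, and 5 had an unadjusted p under 0.05 (6.94%, beside 4.27% of all genes), 2 higher and 3 lower under DCA, beside 2.54% and 1.73% of all genes in these directions. Of the 5, *F11r* and *Rarb* passed the filter on low values only through the treatment in which they were counted, so they are no support for a difference. Separation of the treatments was seen for 12 genes in the higher and 11 in the lower direction, 31.9% of the 72 beside 33.3% of all genes. Their fold changes had a median of -0.05 on the log2 scale, with 32 genes positive and 40 negative, and it was also -0.05 with genes absent from a treatment set to their bound.

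Of 20 ligand genes, 10 were tested, with 1 higher and 0 lower at an unadjusted p under 0.05. *Icam2* (49.8 and 37.0 CPM under vehicle, 38.4 and 35.8 under DCA) and *Icam1* (98.9 and 32.6 CPM under vehicle, 84.6 and 66.9 under DCA), both ligands of LFA-1, had the highest levels per kb. *F11r*, which encodes JAM-A, a junction protein that LFA-1 can bind, was not counted under vehicle and had 134 and 320 counts under DCA. Against the limit of 3 counts per library this is at least 27.9-fold higher, a bound that covers counting error only and not the spread between libraries. *F11r* passed the filter on low values through the DCA libraries alone, so its p-values are not given. *Madcam1*, *Vcam1*, and *Cdh1*, which encode the ligands of α4β7, α4β1, and αEβ7 on other cells, were at 4 counts or fewer in every library. For *Cdh1* the highest value was 4 counts, in DCA replicate 2.

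Inside-out activation, in which talin and kindlin bind the β chain tail and open the receptor, was represented by 21 genes, 17 of them tested, with 0 higher and 1 lower at an unadjusted p under 0.05. *Fermt3*, the kindlin of blood cells, was at 602 and 484 CPM under vehicle and 846 and 691 CPM under DCA. *Skap1*, an adaptor that links receptor signals to LFA-1, was at 639 and 565 CPM under vehicle and 802 and 733 CPM under DCA. For both, the DCA libraries were above the vehicle libraries without reaching an unadjusted p under 0.05. *Tln1*, which encodes talin, was at 162 and 147 CPM under vehicle and 89.5 and 87.3 CPM under DCA, with a log2 difference of -0.81 in the fit (standard error 0.07, unadjusted p = 0.0149, adjusted p = 0.999, edgeR's quasi-likelihood test). Its value stayed between -0.88 and -0.76 with any 1 library left out, and the DCA values were both under the vehicle values.

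Outside-in signaling, the kinases and adaptors that act once ligand is bound, was covered by 28 genes, 20 of them tested, with 0 higher and 1 lower at an unadjusted p under 0.05. *Parvg*, the parvin of blood cells, which joins integrin-linked kinase to actin, was at 98.1 and 97.5 CPM under vehicle and 58.3 and 62.2 CPM under DCA. The log2 fold change of *Parvg* was -0.70 (standard error 0.05), with an adjusted p of 0.999 (unadjusted p = 0.0385) by edgeR's quasi-likelihood test, and it was between -0.75 and -0.66 with 1 library left out. *Ilk*, the integrin-linked kinase itself, was at 163 and 187 CPM under vehicle and 128 and 155 CPM under DCA, so the treatments did not overlap. *Vav1*, an exchange factor for Rac, was at 258 and 103 CPM under vehicle and 267 and 228 CPM under DCA.

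Among 10 membrane partners, 9 were tested, with 1 higher and 0 lower at an unadjusted p under 0.05. The leukocyte tetraspanins *Cd53* (1310 and 1257 CPM under vehicle, 1277 and 1265 under DCA) and *Cd37* (213 and 290 CPM under vehicle, 319 and 246 under DCA) had the highest levels per kb. *Cd81*, a tetraspanin that associates with α4β1, was at 43.0 and 45.5 CPM under vehicle and 109 and 81.4 CPM under DCA. The fit gave *Cd81* a log2 fold change of 1.10 (standard error 0.21, unadjusted p = 0.0103, adjusted p = 0.999, edgeR's quasi-likelihood test), and the DCA values both exceeded the vehicle values.

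Retinoic acid and TGF-β signals are known to set α4β7 and αEβ7 on lymphocytes, and all 12 genes listed as regulators of these chains were tested, with 0 higher and 1 lower at an unadjusted p under 0.05. *Rarb*, a retinoic acid receptor that is itself a target of retinoic acid, had 100 and 72 counts under vehicle and 0 and 0 under DCA. Against the limit of 3 counts per library this is at least 52.1-fold lower, again a bound for counting error only. Since *Rarb* passed the filter on low values through the vehicle libraries alone, its p-values are not given. *Batf*, a transcription factor known for its role in gut homing of lymphocytes, was at 321 and 322 CPM under vehicle and 254 and 256 CPM under DCA, and *Ets1* at 185 and 262 CPM under vehicle and 246 and 271 CPM under DCA.

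**Figure D5:**
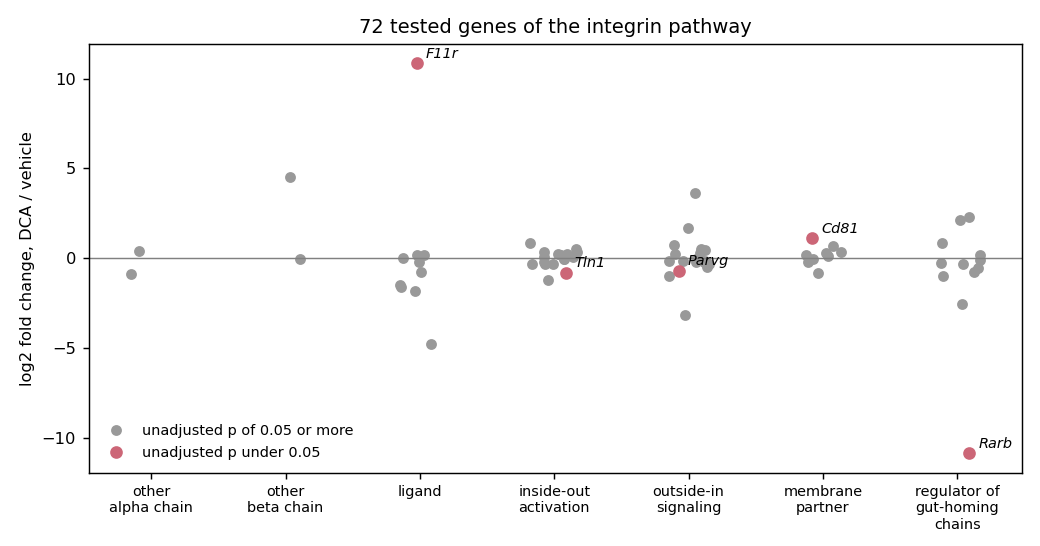
Fitted log2 fold change (DCA over vehicle) of the 72 tested pathway genes by role, with the 5 genes at an unadjusted p under 0.05 in red and named. *Tln1* and *Parvg* are at -0.81 and -0.70 and *Cd81* at 1.10, whereas the far points of *F11r* and *Rarb* have a treatment with 0 counts, so their fitted sizes depend on the prior count.

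Genes whose profile was most like that of an integrin gene were found by the Euclidean distance of mean-centred log2(CPM + 1) over the 4 libraries. For *Itga4* they were *Ift88* (distance 0.913), *Epc2* (0.944), and *Syne4* (0.957). Of these, *Epc2* was at 17.0 and 22.8 CPM under vehicle and 1.48 and 2.91 CPM under DCA. The *Itgb7* profile was matched more closely, by *Chpf2* (0.0669), *Susd6* (0.0756), and *Polr3d* (0.0990). For *Itgae* the nearest were *Lrig1* (0.654), *Zfp831* (0.890), and *Lef1* (0.960). *Lef1*, a transcription factor of lymphocytes, was at 6.83 and 5.99 CPM under vehicle and at 29.3 and 3.07 CPM under DCA. Like *Itgae*, it was highest in DCA replicate 1 and lowest in DCA replicate 2, a likeness for which it was picked.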

How the data were processed

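RNA-Seq libraries of cultured ILC2s (SMART-Seq HT cDNA, paired reads, 2 vehicle and 2 DCA) were assigned to treatments by their labels. Per the submitters' processing notes, reads were trimmed by Cutadapt 1.9 and mapped on mm10 by HISAT2 2.2.1. The deposited values are whole-number read counts per gene. The counting tool, annotation, and strand setting are not given in the sources used here. Genes with 2 counts outnumbered genes with 1 (484 against 253 in vehicle replicate 1), as when both mates of a pair are counted. In 1275 rows the symbol is missing.

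Testing covered genes averaging 1 CPM or more, with edgeR 4.0.16 in R 4.3.3 (quasi-likelihood test after TMM scaling, two-sided, p adjusted by Benjamini-Hochberg). In simulated data with 200 genes changed by a log2 fold of 2, it called 76 of them at the spread estimated here and 200 at a small spread. A change of that size can thus go uncalled in these libraries. CPM are TMM-scaled. The spread of log2(CPM + 1) between libraries gave the standard errors, which are those of the difference of mean log2(CPM + 1). That difference can depart from the fitted fold change printed beside it. Levels per kb use the union of GENCODE exons on GRCm38. Positions and promoters come from RefSeq on GRCm38.p6. DESeq2 1.42.0 and other scalings, filters, thinning of DCA replicate 2, a replicate block, and leaving out each library were alternatives.

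The integrin genes and all gene lists were chosen with earlier results of these data known. Beyond the 10 integrin genes, named were pathway genes past an adjusted or unadjusted p of 0.05, the 2 with the highest level per kb in each role, and the 3 genes nearest in profile to *Itga4*, *Itgb7*, and *Itgae*. *Madcam1*, *Vcam1*, *Cdh1*, *Itgad*, *Itgax*, *Itgam*, overlapping genes, and single cell type markers were named after their values were seen.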

Additional observations from a re-analysis of the deposited data

How the results depend on the processing

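By edgeR's quasi-likelihood test 0 genes passed an adjusted p of 0.05, which became 126 with DESeq2 (85 higher and 41 lower under DCA) and 36 with edgeR without a filter on low counts, and it ran from 0 to 20 with 1 library left out, with 20 without vehicle replicate 1. A lone library was then assumed to vary like the other treatment. At an unadjusted p under 0.05, edgeR gave 478 genes and DESeq2 784. Among the pathway genes 0 became 1 with DESeq2 (*Rarb*, which passed the filter on low counts through the vehicle libraries alone), and was 0 in the other alternatives, leave-outs included. The median log2 fold change of the integrin genes, -0.0037, ran from -0.41 (without DCA replicate 1) to 0.29 (without DCA replicate 2). Of 116 values of single integrin genes, 104 moved by less than the spread between replicates and 13 had the other sign. That spread was wide, up to 2.00 on the log2 scale for *Itgae*, and most values came from refits of all 4 libraries. The 104 are therefore no measure of stability. *Itga4* ran from -3.99 to -3.77 with all libraries kept, and it was among the genes called by DESeq2 and by edgeR without a filter.

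Same-numbered libraries did not deviate together (correlation 0.0197 over genes), so the replicate numbers were not taken as pairs. With the replicate number as a block, 0 genes were called, 450 had an unadjusted p under 0.05, and the median of the integrin genes was -0.16, with *Itgae* at -0.26 and *Itga2* at 3.73. *Itga1* was not tested with filterByExpr, a minimum of 5 CPM, or without vehicle replicate 2, and *Itga2* not with a minimum of 5 CPM. Depth limits what the counts of 0 show, which allow up to 0.0928 CPM for *Itga1* in DCA replicate 1 and 0.0820 CPM for *Itga2* in vehicle replicate 1.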
